A study of Homo sapiens with 10 samples.

Results

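The 60 genes described here encode nucleolar proteins that make ribosomes, and they were followed in newly made and in total RNA of 22RV1, a cultured cell line from a human prostate cancer. They are a list of names, drawn up with earlier results of these data known, and are 60 of the 31015 genes with an annotated 3′ interval in the files. Libraries came from 5 groups with 2 replicates each: untreated control cells, and cells exposed for 4 h to 20 μM SRPIN340, 50 μM Endovion, THZ531, or THZ531 combined with Endovion. SRPIN340 and Endovion are used as inhibitors of the splicing factor kinase SRPK1, and THZ531 as an inhibitor of the transcriptional kinase CDK12. The dose of THZ531 is 100 nM in the study's methods and 150 nM in the description of the series. The combination of THZ531 with SRPIN340 was not analysed here. All cells received 4-thiouridine for the last 10 min of culture. The label is incorporated into RNA while it is made and is read as a T>C conversion after alkylation. T>C reads are therefore taken as nascent RNA and all reads as total RNA. No unlabelled library was among the samples, so T>C reads that arise from sequencing errors or variants could not be subtracted. Every sample comes from the same cell line, and nothing in the labels says that replicates were separate cultures, so the p-values measure only the spread between these libraries.

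A ribosome is built in the nucleolus from a precursor RNA that RNA polymerase I transcribes. Small nucleolar ribonucleoproteins (snoRNPs) of the box C/D and box H/ACA classes modify this RNA, the small subunit processome cuts and folds the part that becomes 18S rRNA, and further sets of proteins mature the 40S subunit and assemble the 60S subunit. Genes of this kind are highly transcribed in dividing cells, many of them are targets of MYC, and prostate cancers often have enlarged nucleoli. The 60 genes comprise 3 subunits of RNA polymerase I, 4 scaffold proteins of the nucleolus, 3 proteins of box C/D and 4 of box H/ACA snoRNPs, 19 of the small subunit processome, 7 of 40S maturation and 20 of 60S assembly.

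Libraries held between 35517462 and 53592904 mapped reads, and between 1011595 and 1576106 T>C reads on genes. The luminal prostate markers KRT18 (354 to 484 CPM, counts scaled to library size with TMM factors, over the 10 libraries) and HOXB13 (43.5 to 114) were present, whereas the leukocyte marker CD3E, the endothelial markers CDH5 and VWF and the fibroblast marker COL1A2 were at 0 in all libraries. Among 20 marker genes, the highest level of a non-epithelial one was 3.27 CPM (COL1A1). In total RNA of WDR75, NOP10 and NOP58 both control libraries lay below every treated library. Control replicate 2 stood further apart for several of the 60 genes. Its total RNA of WDR75 was 1.01 CPM against 6.45 in control replicate 1, that of UTP20 was 2.31 against 6.60, that of NOP10 was 36.2 against 62.4, and that of NOP58 was 36.4 against 57.5. Of 51 calls described below, 28 were lost when this library was left out, and results are therefore given with and without it where it decides them. In cultured cells harvested in bulk, fewer cells and less RNA per cell cannot be told apart.

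A sequence feature that did not define the list was looked for in the promoters. The E-box CACGTG is bound by MYC and related factors, and it is its own reverse complement, so that 1 search covers both strands. It was found in 20 of the 51 genes with a promoter entry (39.2%), in 7.43% of 27305 promoters in the same RefSeq table, and in 10.9% of the 7766 promoters of protein-coding genes that were tested for nascent RNA. Each window ran from 250 bases before to 50 bases after the start site, and 17 of the 22 copies lay within 50 bases of it. By role, the motif was in 9 of 17 promoters of the small subunit processome, 6 of 16 of 60S assembly, 3 of 6 of 40S maturation, 1 of 2 of box C/D and 1 of 4 of box H/ACA snoRNP genes, and in none of the 3 of RNA polymerase I or the 3 of the scaffold proteins. Windows of 30 bases are shown for 6 genes whose RNA changed in a comparison below, with the motif in capitals and the strand of the gene (RefSeq sequence, GRCh38.p14).
RCL1, chr9:4792936-4792965, plus strand: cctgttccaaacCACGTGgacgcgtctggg
SURF6, chr9:133336395-133336424, minus strand: ggagcacaggaaCACGTGcgggaccggggt
NOP10, chr15:34343130-34343159, minus strand: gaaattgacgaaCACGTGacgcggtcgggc
PES1, chr22:30591880-30591909, minus strand: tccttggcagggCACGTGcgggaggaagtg
MRTO4, chr1:19251807-19251836, plus strand: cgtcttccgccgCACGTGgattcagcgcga
GNL2, chr1:37595917-37595946, minus strand: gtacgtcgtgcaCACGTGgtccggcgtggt
These letters are a description of the windows and no evidence of a bound factor. The promoters of NOP16, NOL9, PPAN, POLR1A and UTP6, whose RNA also changed, had no such motif in this window. These are not all genes with a call: NOP2 had the motif at the edge of its window and is not shown. No motif was found for RRS1, NOP58, NOP56, MPHOSPH10, GTPBP4, RRP1, UTP3, GAR1 and DDX10, of which some may lack a promoter entry.

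Before any gene was tested, the 60 genes together were followed as a share of the T>C reads of each library. They held 0.733% and 0.730% of the T>C reads in control cells, 0.662% and 0.692% with SRPIN340, and 0.622% and 0.617% with Endovion. With THZ531 alone the share was 0.752% and 0.743%, and with THZ531 and Endovion it was 0.613% and 0.704%. Both libraries of SRPIN340, of Endovion and of the combination lay below both control libraries, whereas both libraries of THZ531 lay above them. The 95% Wilson intervals of these shares, which cover counting error only, were at most 0.0166 percentage points wide on either side. In all reads the groups overlapped more: the 60 genes held 0.781% and 0.839% in control cells, 0.765% and 0.797% with SRPIN340, 0.702% and 0.759% with Endovion, 0.815% and 0.836% with THZ531, and 0.681% and 0.786% with the combination. These sums lean on few genes. DDX21, an RNA helicase of the nucleolus, gave 18.8% of the T>C reads of the 60 genes over the 10 libraries, NPM1 (nucleophosmin) 11.5%, NOP16 7.34%, FBL 6.32% and NCL (nucleolin) 6.06%, and these 5 together 50%.

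**Figure D1:**
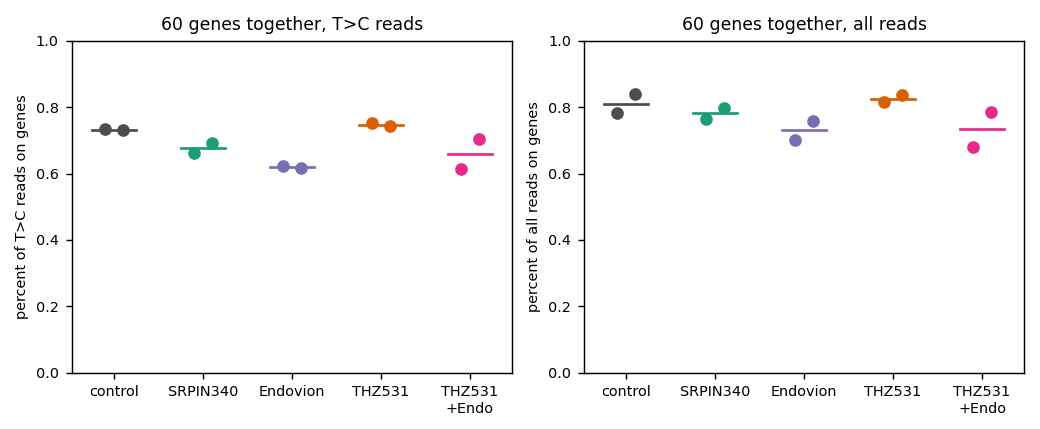
Percent of the T>C reads on genes (left) and of all reads on genes (right) that the 60 genes held together, by treatment. Points are libraries and bars are group means; in T>C reads both Endovion libraries (0.622% and 0.617%) lie below both control libraries (0.733% and 0.730%).

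In control cells, 1.13% (BOP1) to 28.4% (RCL1) of a gene's reads were labelled, with a median of 4.38% over 59 genes, against 5.13% over 9511 tested protein-coding genes. The labelled share of a 3′ end count depends on RNA turnover and on the number of T positions in the interval, so that levels are compared within a gene only. High shares were found for RCL1, UTP20 (19.6%), NOP16 (18.9%), WDR75 (17.1%), NHP2 (14.2%) and GAR1 (12.8%), and low shares for NOP53 (1.46%), PPAN (1.85%), PES1 (2.01%), NOP56 (2.23%) and FBL (2.41%). WDR75 had little RNA in control cells, and its group means with the treatments were 4.98% to 6.79%. Those of PPAN, which had few T>C reads, were 1.09% to 18.7%. How many of the T>C reads behind low shares came from errors or variants was not measured. RCL1 had 23.1% to 32.8% in the 10 libraries. Masking of sequence variants is not given in the sources used here, and a base of these cells that differs from the reference would be read as a conversion, so that the T>C reads of RCL1 may not all be nascent RNA, which was not tested. NPM1 kept its share between 2.59% and 3.05% in all libraries. The 60th gene, UTP4, had 0 to 2 T>C reads per library and was tested in total RNA only.

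For 4 of the 7 roles, the gene with most T>C reads over the control libraries is given here. POLR1B, the second largest subunit of RNA polymerase I, had 43.1 and 28.1 T>C CPM in control cells, 28.4 and 21.9 with SRPIN340, 32.2 and 27.9 with Endovion, 44.9 and 37.6 with THZ531, and 21.2 and 34.4 with the combination. Its groups overlapped throughout except that both THZ531 libraries lay above both of every group but the control. NOB1, the endonuclease that makes the 3′ end of 18S rRNA, had 85.6 and 81.1 in control cells, 75.1 and 53.8 with SRPIN340, 55.3 and 62.5 with Endovion, 59.2 and 88.5 with THZ531, and 79.6 and 71.8 with the combination. All libraries of NOB1 with SRPIN340, Endovion or the combination lay below both control libraries, and the THZ531 libraries spanned the control range. FBL had 425 and 522 in control cells, 536 and 467 with THZ531, and 447 and 413 with the combination. GAR1 had 334 and 317 in control cells, 256 and 273 with SRPIN340, 284 and 276 with THZ531, and 241 and 293 with the combination. In GAR1 every treated library was below both control libraries, and none of these 4 genes passed the nascent test in any comparison.

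The genes are compact but rich in exons. Their median span was 20.5 kb, against 35.1 kb over the tested protein-coding genes, and the transcript with most exons had a median of 14 of them against 10. Of the 60 genes, 10 held 29 annotated small nucleolar RNA genes within them, among them NOP58 with 4 and PPAN with 2. RNA of 47 genes was counted in 1 interval. Intervals of 8 genes overlap those of a gene on the opposite strand, and those of 2 genes, DKC1 and NOP2, overlap another gene on their own strand.

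SRPIN340 changed the nascent RNA of 1 of the 60 genes. NOP16, a protein of the assembling 60S subunit (chr5:176383946-176388927, minus strand, hg38), had 621 and 697 T>C CPM in the control libraries and 417 and 446 with SRPIN340. Neither library overlapped the control range, and the log2 fold change was -0.61 ± 0.15 (SE, n = 2 libraries per group, edgeR quasi-likelihood test, Benjamini-Hochberg adjusted p = 0.0235). This was 1 gene down and 0 up of 59 tested, against 0.191% of 9946 genes down and 0.845% up. The median over the 59 genes was -0.13 on the log2 scale, with 38 below 0, against -0.01 over all genes tested. It was -0.06 without SRPIN340 replicate 1 and -0.24 without SRPIN340 replicate 2. None of the other 58 passed, including SURF6, a 60S assembly protein (log2 fold change -0.83, adjusted p = 0.275), NOP56 (-0.74, adjusted p = 0.578) and DDX21 (-0.27, adjusted p = 0.504). The NOP16 call was lost without control replicate 2 (-0.52, adjusted p = 0.325), without SRPIN340 replicate 1 (-0.56, 0.265), without SRPIN340 replicate 2 (-0.66, 0.197), when only these 2 groups were fitted (adjusted p = 0.0953) and in a plain sum of overlapping intervals (adjusted p = 0.161). Adjusted p ranged from 0.00449 to 0.325 over the 16 alternatives.

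Total RNA of the 60 genes gave no call with SRPIN340 in edgeR (0 up and 0 down of 60, against 1.82% of 14689 genes up and 0.143% down). At an unadjusted p under 0.05, 5 of the 60 were up and 7 down, beside 2067 up and 766 down of all 14689. DESeq2 called 3 of the 60 genes, all up. NOP16 had 199 and 173 CPM in control cells and 169 and 192 with SRPIN340, which overlap. The labelled share of NOP16 was 17.3% and 21.1% in control cells and 13.6% and 11.8% with SRPIN340, with Wilson intervals of at most 1.24 percentage points on either side. That change of -0.61 ± 0.13 on the log2 scale was the 1 call among 59 genes (adjusted p = 0.0392), against 0.181% of 9946 genes called in either direction. It was lost under 10 of 12 alternatives, among them each library left out except control replicate 1, with adjusted p from 0.00197 to 0.529.

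Endovion changed NOP16 in the same direction. Its nascent RNA was 398 and 372 T>C CPM, below the 621 and 697 of control cells, a log2 fold change of -0.77 ± 0.15 (adjusted p = 0.000699). The call held under all 16 alternatives (adjusted p at most 0.0350). It was the 1 gene down and none rose of 59 tested, whereas 0.623% of 9946 genes fell and 2.04% rose. The median over the 59 genes was -0.25, with 42 below 0, against -0.01 over all genes, and it stayed between -0.35 and -0.20 under the 16 alternatives. When libraries were scaled by all reads, all genes tested had a median of -0.105 and the 59 genes had their median of -0.35. By role, the median was -0.37 over 20 genes of 60S assembly (16 below 0), -0.31 over the 3 box C/D genes, -0.25 over the 3 RNA polymerase I and the 7 40S maturation genes, -0.19 over 18 small subunit processome genes, -0.11 over the 4 scaffold genes and -0.01 over the 4 box H/ACA genes.

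Several of the 59 genes had lower nascent values with Endovion without passing the test. DDX21 had 1526 and 1524 T>C CPM in control cells and 1195 and 1086 with Endovion (log2 fold change -0.42 ± 0.14, adjusted p = 0.0988). SURF6 had 64.4 and 77.0 in control cells and 46.8 and 24.1 (-0.97 ± 0.33, adjusted p = 0.112). GAR1, a box H/ACA protein, had 334 and 317 and then 249 and 239 (-0.42 ± 0.17, adjusted p = 0.212). In each of these genes both Endovion libraries lay below both control libraries, which was so for 21 of the 59 genes (and above for 7), against 21.6% of all genes below and 22.0% above. Nascent NPM1 was level: 745 and 813 in control cells and 722 and 829 with Endovion, a log2 fold change of -0.01 ± 0.15. FBL, the 2′-O-methyltransferase of box C/D snoRNPs, had 425 and 522 and then 409 and 355 (-0.31 ± 0.16, adjusted p = 0.377).

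Total RNA showed more calls with Endovion than nascent RNA did. Of the 60 genes 7 fell and 1 rose, against 2.54% and 8.90% of 14689 genes. Those that fell were RRP1 (log2 fold change -0.82 ± 0.17, adjusted p = 0.00822), RCL1 (-0.57), RRS1 (-0.55), NOP56 (-0.49), PES1 (-0.49), NOP2 (-0.46) and GTPBP4 (-0.36), 5 of them proteins of 60S assembly. RRP1 had 20.43 and 24.95 CPM in control cells and 13.2 and 12.5 with Endovion. NOP56, a core protein of box C/D snoRNPs, had 86.8 and 86.6 and then 54.6 and 69.0. PES1, which acts with BOP1 and WDR12 in 60S assembly, had 75.6 and 93.2 and then 63.4 and 56.6. No value of these 3 genes overlapped between the groups. UTP6 of the small subunit processome rose (1.85 ± 0.37, adjusted p = 0.0188), from 9.55 and 7.24 CPM to 34.97 and 25.57.

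The number of genes called in total RNA with Endovion depended strongly on single libraries. It was 8 with all libraries, 1 without control replicate 2, without Endovion replicate 1 or without Endovion replicate 2, 23 without control replicate 1, 18 and 19 without THZ531 replicates 1 and 2, 15 without replicate 1 of the combination, 22 in DESeq2 and 21 without a filter on low counts. RCL1 is the 1 gene of the 8 that passed without control replicate 2 (-0.67, adjusted p = 0.0413). The labelled share gave no call with Endovion among the 59 genes in edgeR, against 0.442% of 9946 genes called. At an unadjusted p under 0.05, 2 of the 59 were up and 6 down, beside 407 up and 520 down of all 9946. NOP16 was closest, from 17.3% and 21.1% to 13.2% and 11.9% (log2 fold change -0.55 ± 0.14, adjusted p = 0.0515).

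**Figure D2:**
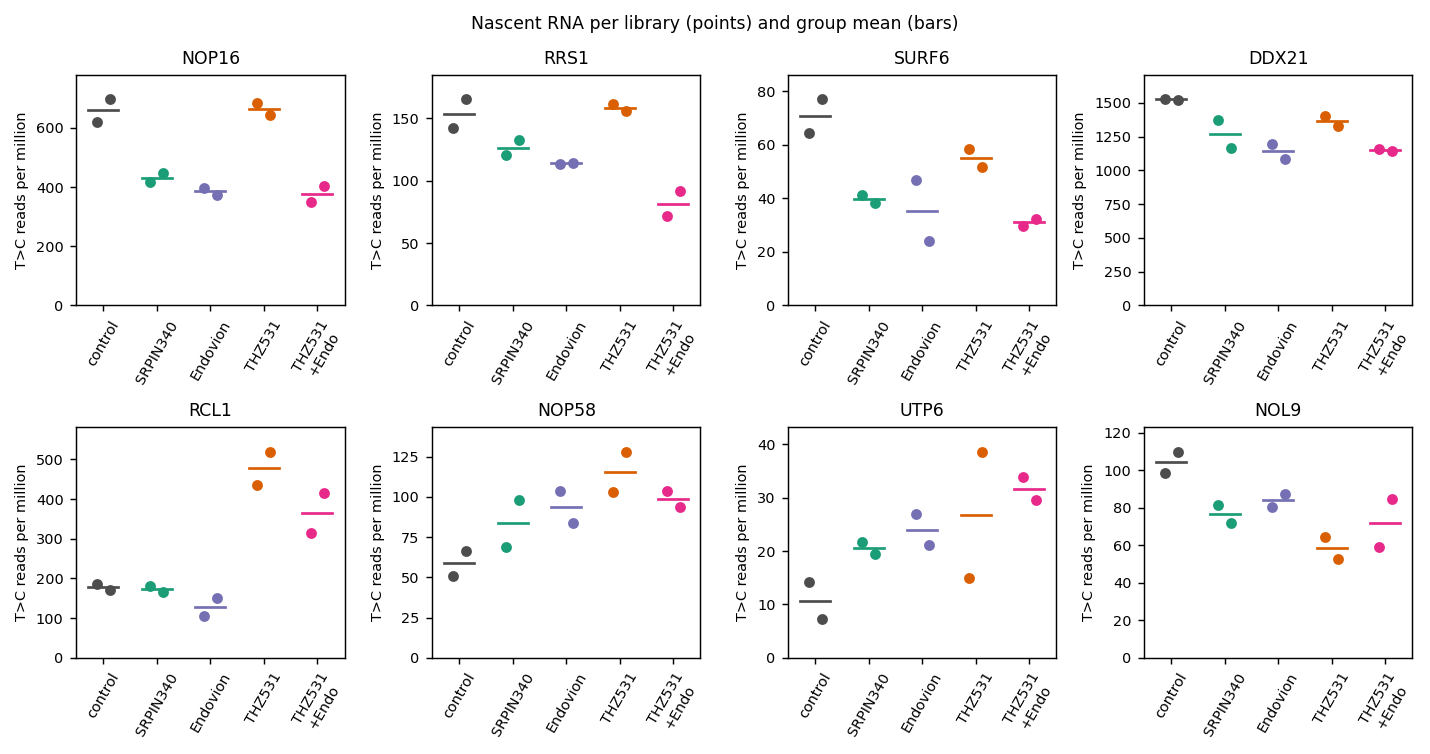
Nascent RNA (T>C CPM, linear axes from 0) of 8 genes in the 10 libraries; points are libraries and bars are group means. NOP16 is at 621 or more in all control and THZ531 libraries and at 446 or less in the other 3 groups, whereas RCL1 is at 313 or more in both groups with THZ531.

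THZ531 alone moved single genes of the set both ways, with a median near 0. The nascent median was 0.01 on the log2 scale over 59 genes, with 29 below 0 and 30 above, against -0.02 over all genes. Of the 59 genes, 2 rose and 1 fell, whereas 3.86% of 9946 genes rose and 3.60% fell. RCL1, a processome protein that acts with BMS1, rose from 185 and 171 T>C CPM to 436 and 520 (log2 fold change 1.42 ± 0.18, adjusted p = 1.3e-07). NOP58, a core protein of box C/D snoRNPs, rose from 50.9 and 66.6 to 103 and 128 (0.97 ± 0.26, adjusted p = 0.0106). NOL9, a polynucleotide kinase needed for the maturation of 28S rRNA, fell from 98.5 and 110 to 64.4 and 52.9 (-0.82 ± 0.26, adjusted p = 0.0434). In all 3 genes both treated libraries lay outside the control range.

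These calls differed in how firmly they stood. RCL1 passed under all 16 alternatives, with log2 fold changes from 1.29 to 1.54, within the limit on its T>C reads given above. NOP58 was lost without control replicate 1 (0.81, adjusted p = 0.110), without THZ531 replicate 2 (0.82, 0.166) and in the plain sum of intervals (0.96, 0.118), with adjusted p from 0.00828 to 0.166 over the alternatives. NOL9 was lost under 13 of 16, with log2 fold changes between -0.97 and -0.69 and adjusted p from 0.0414 to 0.301. It was lost without either control library, without either THZ531 library, without either SRPIN340 library, without either Endovion library and in DESeq2. Nascent NOP16 was 684 and 644 T>C CPM with THZ531, beside 621 and 697 in control cells (log2 fold change 0.01 ± 0.15).

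In total RNA, 8 of the 60 genes rose with THZ531 and 4 fell, against 16.6% and 14.1% of 14689 genes, and the median over the 60 was 0.12 against -0.01 over all genes. The 3 with the smallest p among those that rose were RCL1, MPHOSPH10 and NOP58. RCL1 went from 35.2 and 32.6 CPM to 82.8 and 93.2 (log2 fold change 1.37 ± 0.13, adjusted p = 6.1e-06). NOP58 went from 57.5 and 36.4 to 85.1 and 97.1 (0.95 ± 0.17, adjusted p = 0.00118), and without control replicate 2, its lower control, the change was 0.62 (adjusted p = 0.0102). MPHOSPH10, the human Mpp10 protein of the processome, went from 16.04 and 13.17 to 32.0 and 42.0 (1.34 ± 0.18, adjusted p = 9.96e-05). The others that rose were UTP6 (1.53), NOP10 (0.84), GNL2 (0.57), NOP16 (0.48) and GAR1 (0.32), and without control replicate 2 none of these 5 passed (adjusted p from 0.101 to 0.217).

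The 4 genes that fell in total RNA with THZ531 did so under every alternative run. PPAN, a 60S assembly protein (chr19:10106362-10112012, plus strand), had 14.2 and 15.1 CPM in control cells and 4.09 and 3.81 with THZ531 (log2 fold change -1.88 ± 0.33, adjusted p = 0.000978). POLR1A, the largest subunit of RNA polymerase I, had 39.4 and 50.1 and then 20.8 and 24.2 (-0.99 ± 0.15, adjusted p = 0.000208). NOL9 had 106 and 128 and then 62.4 and 58.3 (-0.95 ± 0.12, adjusted p = 5.3e-05). SURF6 had 75.5 and 84.6 and then 52.7 and 42.1 (-0.75 ± 0.16, adjusted p = 0.00282). In nascent RNA POLR1A had a log2 fold change of -0.91 ± 0.44 from 51 and 46 T>C reads to 26 and 20, which did not pass (adjusted p = 0.213). PPAN had only 0 to 22 T>C reads in any library, so that its nascent RNA was not measured with useful precision. The labelled share of the 59 genes gave no call with THZ531 in edgeR, against 0.342% of 9946 genes called. At an unadjusted p under 0.05, 2 of the 59 were up and 5 down, beside 460 up and 543 down of all 9946.

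**Figure D3:**
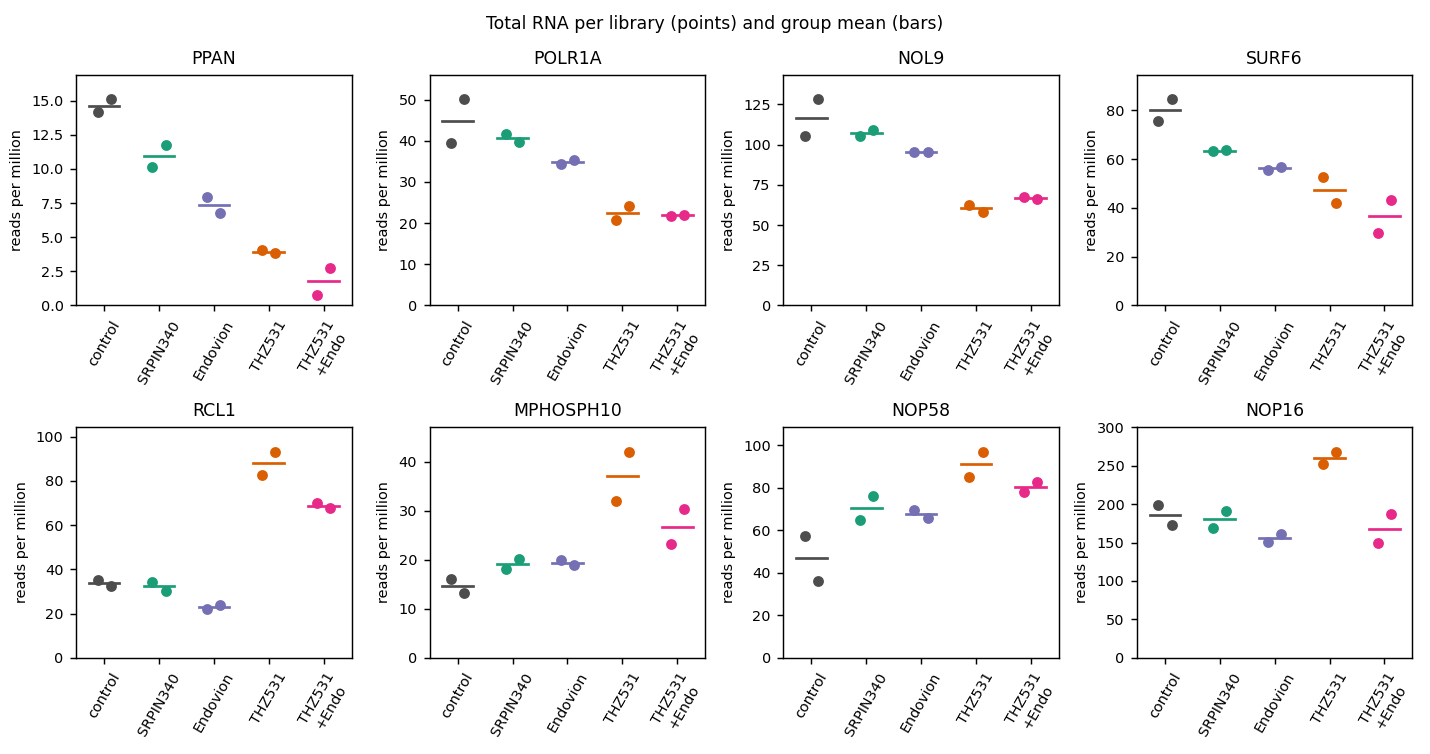
Total RNA (CPM, linear axes from 0) of 8 genes in the 10 libraries; points are libraries and bars are group means. PPAN, POLR1A, NOL9 and SURF6 are low and RCL1, MPHOSPH10 and NOP58 high in both groups with THZ531, and PPAN is between control and THZ531 in the SRPIN340 and Endovion libraries.

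THZ531 combined with Endovion changed nascent RNA of 5 of 59 genes, 2 up and 3 down, a share near that of all 9946 genes, of which 4.61% rose and 3.51% fell. The median over the 59 genes was -0.24, with 36 below 0, against -0.01 over all genes, and it ranged from -0.29 to -0.15 under the alternatives, the latter when replicate 1 of the combination was left out. Nascent NOP16 was 350 and 405 T>C CPM (log2 fold change from control -0.80 ± 0.15, adjusted p = 0.000199), and it passed under all 16 alternatives. RRS1, which helps to bring the 5S ribonucleoprotein to the 60S subunit, went from 142 and 165 to 72.0 and 91.5 (-0.91 ± 0.22, adjusted p = 0.00465). SURF6 went from 64.4 and 77.0 to 29.7 and 32.5 (-1.18 ± 0.34, adjusted p = 0.0179). All 3 are proteins of 60S assembly, of which 15 of 20 were below 0 with a median of -0.36.

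The genes that rose were RCL1 and UTP6. RCL1 went from 185 and 171 T>C CPM to 313 and 416 (1.03 ± 0.18, adjusted p = 5.7e-05), which held under all 16 alternatives. UTP6 went from 14.2 and 7.22 to 33.9 and 29.5 (1.54 ± 0.49, adjusted p = 0.0393), on 22 and 9 T>C reads in control cells. Without control replicate 2, UTP6 (1.16, adjusted p = 0.291), SURF6 (-1.05, 0.136) and RRS1 (-0.80, 0.0669) no longer passed. They also fell short without replicate 1 of the combination (adjusted p = 0.226, 0.166 and 0.135), and UTP6 and SURF6 without its replicate 2 (0.0938 and 0.0784). Over all 16 alternatives adjusted p ranged up to 0.291 for UTP6, 0.166 for SURF6 and 0.135 for RRS1. The count of 5 calls was 3 without control replicate 2, 2 without replicate 1 of the combination, and 2 in the plain sum of intervals.

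Total RNA gave 6 genes up and 10 down of 60 with the combination, against 16.6% and 12.4% of 14689 genes. PPAN had 0.789 and 2.72 CPM, beside 14.2 and 15.1 in control cells (log2 fold change -3.09 ± 0.37, adjusted p = 7.6e-05). That is 18 and 52 reads, against 397 and 359 in the control libraries. POLR1A (21.8 and 22.0 CPM, -1.03 ± 0.15), SURF6 (29.8 and 43.4, -1.13 ± 0.16), NOL9 (67.2 and 66.0, -0.81 ± 0.12) and RRS1 (83.9 and 127, beside 174 and 201 in control cells, -0.83 ± 0.15) fell under every alternative run, as PPAN did. The other 5 that fell were RRP1 (-0.54), PES1 (-0.53), UTP3 (-0.47), MRTO4 (-0.46) and GTPBP4 (-0.39), and none of these passed without control replicate 2. RCL1 (70.1 and 67.5 CPM, 1.02 ± 0.13) and MPHOSPH10 (23.2 and 30.3, 0.87 ± 0.18) rose under every alternative, whereas NOP58 (0.78), UTP6 (1.75), NOP10 (0.78) and DDX10 (0.61) did not pass without control replicate 2. The count of 16 was then 7, and leaving out replicate 1 of the combination gave 10. The labelled share of NOP16, 12.1% and 11.6%, was the 1 call of 59 genes (log2 fold change -0.67 ± 0.14, adjusted p = 0.00654), against 1.02% of 9946 genes, and it was lost without control replicate 2 (-0.47, adjusted p = 0.186; another gene then passed upwards) and without either library of the combination.

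**Figure D4:**
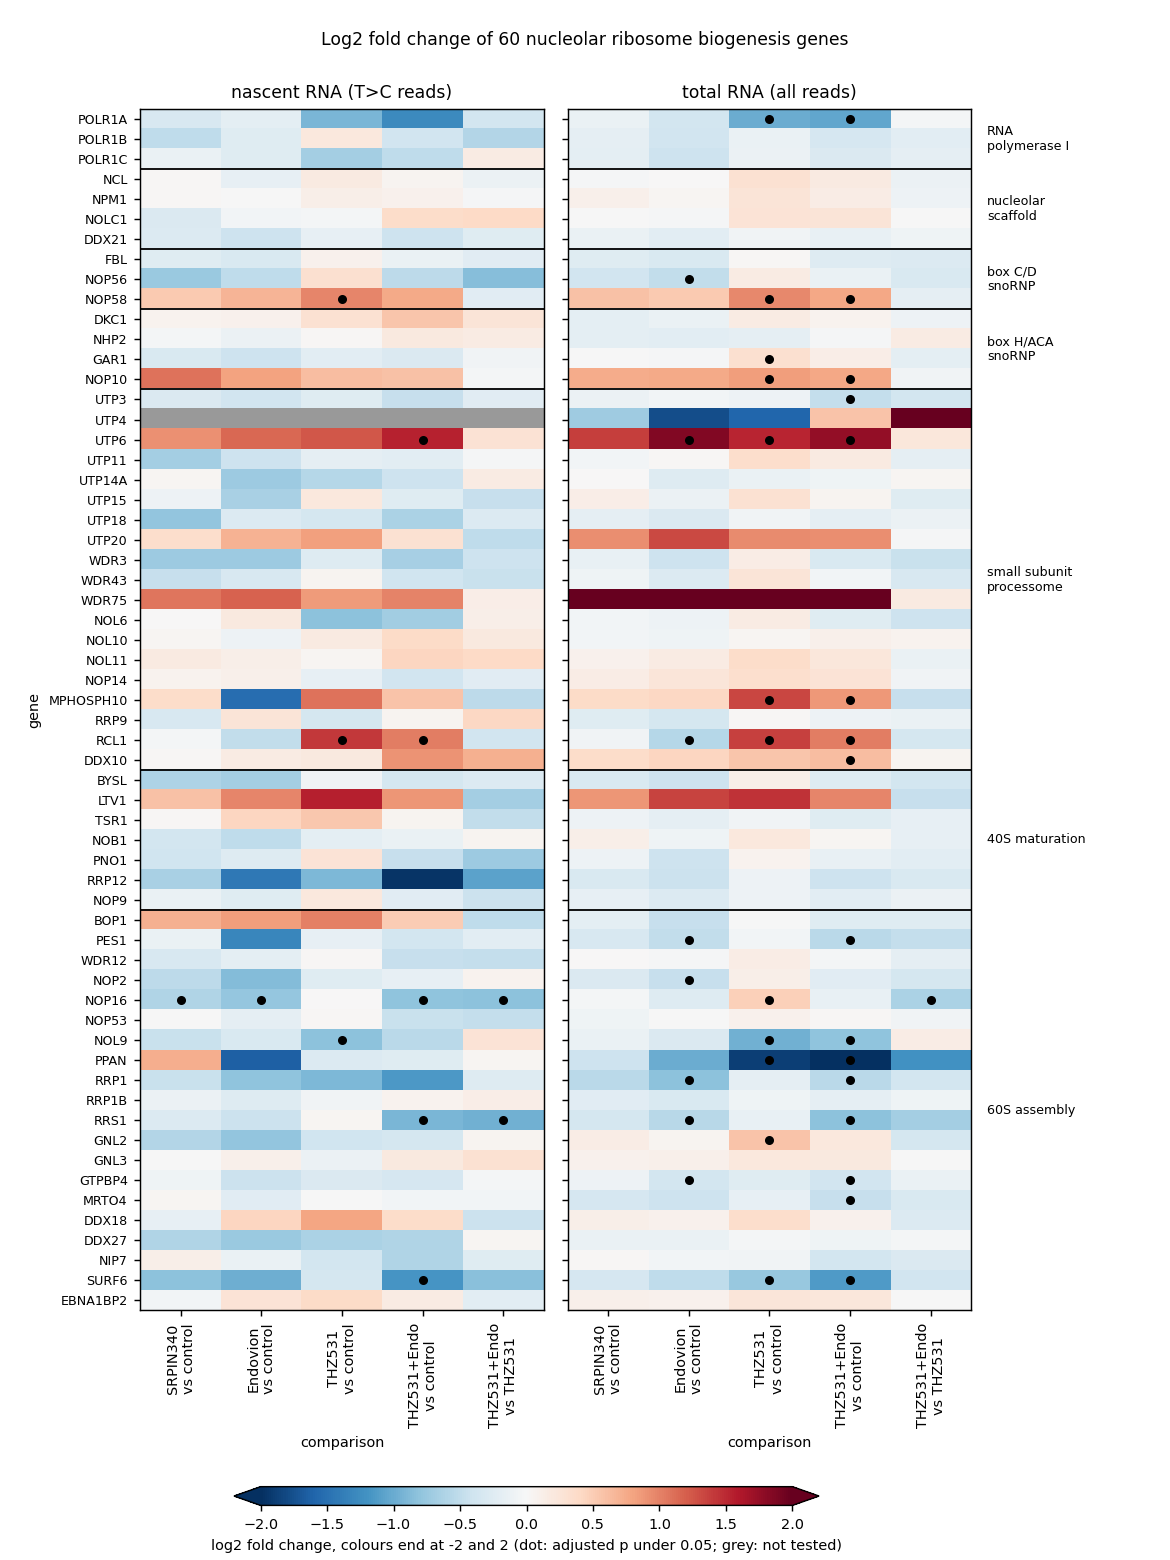
Log2 fold changes of the 60 genes (rows, by role) in 5 comparisons (columns) for nascent RNA (left) and total RNA (right). Dots mark an adjusted p under 0.05, grey marks the untested UTP4, and colours end at -2 and 2; NOP16 is marked in 4 of the 5 nascent comparisons.

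The combination was also set against THZ531 alone, so that both groups had THZ531 and 1 of them had Endovion too. Nascent RNA of 2 of 59 genes fell and none rose, against 0.181% of 9946 genes down and 0.141% up. NOP16 went from 684 and 644 T>C CPM with THZ531 to 350 and 405 with both compounds (log2 fold change -0.82 ± 0.15, adjusted p = 0.00232). RRS1 went from 161 and 156 to 72.0 and 91.5 (-0.96 ± 0.22, adjusted p = 0.0262). In both genes the groups did not overlap, which was so downwards for 17 of 59 genes and upwards for 6, against 18.2% and 18.1% of all genes. The median over the 59 genes was -0.22, with 39 below 0, against 0.02 over all genes, and it lay between -0.28 and -0.10 under the alternatives. Without replicate 1 of the combination neither gene passed (NOP16 -0.72, adjusted p = 0.222; RRS1 -0.80, adjusted p = 0.649), nor without THZ531 replicate 1 (adjusted p = 0.0845 and 0.249). RRS1 was also lost without THZ531 replicate 2 (adjusted p = 0.136) and without replicate 2 of the combination (0.0506). Adjusted p ranged from 6.25e-06 to 0.222 for NOP16 and from 0.0129 to 0.649 for RRS1.

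In total RNA 52 of the 60 genes were below 0 in this comparison, with a median of -0.18, against 6938 of 14689 genes and a median of 0.02. Of 20 genes of 60S assembly 19 were below 0, as were all 7 of 40S maturation, all 4 scaffold genes, all 3 box C/D genes and all 3 subunits of RNA polymerase I. NOP16 was the 1 gene that passed, from 252 and 269 CPM to 150 and 187 (-0.63 ± 0.12, adjusted p = 0.0390), against 0.184% of 14689 genes down and 0.327% up. The call was lost under 9 of 16 alternatives (adjusted p from 8.4e-05 to 0.391), among them replicate 1 of the combination left out, either Endovion library left out and either SRPIN340 library left out. In the labelled share none of 59 genes and 0.00% of 9946 genes were called by edgeR. At an unadjusted p under 0.05, 3 of the 59 genes were up and none down, beside 256 up and 239 down of all 9946.

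Whether Endovion acted differently with THZ531 than without it was tested as an interaction in the same fit, a comparison added after the data had been seen. None of the 59 genes passed in nascent RNA (30 of all 9946 genes did), and the smallest p among them was that of NOP58, whose Endovion effect was 0.91 lower on the log2 scale with THZ531 than without (difference -0.91 ± 0.36, unadjusted p = 0.0157, adjusted p = 0.480). For NOP16 the effects of Endovion on nascent RNA were -0.77 without and -0.82 with THZ531. In total RNA none of the 60 genes passed this interaction test, and 1 of all 14689 genes did. The smallest p among the 60 was that of MPHOSPH10 (difference -0.88 ± 0.26, unadjusted p = 0.00348, adjusted p = 0.24). The difference for NOP16 in total RNA was -0.37 ± 0.175 (unadjusted p = 0.0481, adjusted p = 0.382). Because the control libraries enter 4 of the comparisons, these comparisons are not independent of each other.

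Changes of nascent and total RNA ran in the same direction for 49 of 59 genes with Endovion, 44 with SRPIN340, 41 with THZ531, 47 with the combination against control and 46 with the combination against THZ531. T>C reads are part of all reads, so the pair of measures shares libraries and reads. Across the 59 genes, Pearson's r between them was 0.45 (combination against THZ531) to 0.69 (THZ531 against control). For NOP16 the measures gave different calls: with Endovion its nascent RNA fell by 0.77 on the log2 scale, while its total RNA was 151 and 161 CPM beside 199 and 173 in control cells and did not pass (-0.26, adjusted p = 0.194). With THZ531 its total RNA had 0.48 (adjusted p = 0.00829, but 0.103 without control replicate 2 and 0.0972 without THZ531 replicate 2) and its nascent RNA 0.01, and its labelled share, which tests the difference, did not pass (-0.46, adjusted p = 0.148).

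Reads of 7 genes fell on more than 1 separate interval with at least 5% of the gene's reads each. Of these, UTP4, had at most 19 reads in a library and is not described. MPHOSPH10 has an inner interval (chr2:71138781-71139425, hg38, plus strand), at the annotated end of a short transcript, and a distal interval at the end of the full-length transcripts (chr2:71150016-71150101). The inner interval held 34.9% and 32.6% of its reads in control cells, 31.5% and 19.3% with SRPIN340, 16.7% and 12.3% with Endovion, 58.6% and 47.3% with THZ531, and 43.3% and 42.1% with the combination. The share was thus higher in all 4 libraries with THZ531 than in any other library, and lowest in both Endovion libraries. In reads, the inner interval had 157 and 102 in control cells and 508 and 371 with THZ531, while the distal one had 293 and 211 and then 359 and 413. With THZ531 the inner interval thus held more reads than the distal one in replicate 1 and fewer in replicate 2.

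Other genes with inner intervals behaved variously. TSR1, a 40S maturation factor (minus strand), had 6.35% and 7.82% of its reads in its inner interval (chr17:2333390-2333542) in control cells, 14.2% and 10.6% with THZ531 and 8.37% and 8.15% with the combination. POLR1C, a subunit shared by RNA polymerases I and III, had 90.9% and 91.5% in its inner interval (chr6:43521301-43521506) in control cells, 97.4% and 97.4% with THZ531 and 93.68% and 93.03% with the combination. For NPM1 the inner interval held 13.8% and 15.7% in control cells and 12.2% and 11.6% with THZ531. The first of 3 intervals of DKC1 held 22.2% and 27.9% and then 20.6% and 17.5%, and that of WDR3 held 22.2% and 27.3% and then 19.1% and 20.5%. Both THZ531 libraries thus lay above both control libraries for 3 genes and below them for the other 3. For NPM1, DKC1 and WDR3 every library of every treatment lay below both control libraries, so that their lower share was not particular to THZ531. How often such shifts occur over all genes with several intervals was not computed. The genes were picked out by their number of intervals after the data had been seen, and the shares were not tested. The Wilson intervals were at most 5.17 percentage points on either side for MPHOSPH10, 1.43 for TSR1 and 2.53 for POLR1C.

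The 20 genes with an E-box in their promoter window are set beside the 31 without it. In nascent RNA with Endovion the median was -0.28 over 19 tested genes with the motif (12 below 0) and -0.25 over 31 without it (24 below 0). For the combination against THZ531 it was -0.22 (14 of 19 below 0) and -0.07 (19 of 31), and for THZ531 against control -0.07 and 0.01. In total RNA with Endovion it was -0.30 over 20 genes with the motif and -0.13 over 31 without it, and for the combination against THZ531 -0.29 and -0.14. In the other total RNA comparisons these medians were -0.09 and -0.10 with SRPIN340, 0.12 and 0.14 with THZ531, and -0.10 and -0.08 with the combination against control. Spearman's rho between gene span and change was 0.0615 to 0.176 across the 59 genes in the 5 nascent comparisons, beside 0.0539 to 0.125 over 9511 protein-coding genes, and 0.114 to 0.359 across the 60 genes in total RNA, beside 0.0993 to 0.196 over 12883. Genes are no replicates of a treatment, and these values are a description.

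A wider list of 107 other ribosome biogenesis genes, of which 95 were tested in nascent RNA and 103 in total RNA, shows how far the 60 genes resemble their pathway. In nascent RNA no gene of the wider list passed with SRPIN340, with Endovion or for the combination against THZ531. At an unadjusted p under 0.05, 5 were up and 6 down with SRPIN340, beside 624 up and 411 down of all 9946 genes. With Endovion 4 were up and 9 down, beside 826 and 574. For the combination against THZ531 1 was up and 7 down, beside 398 and 379. At an adjusted p under 0.05, 5 rose and 1 fell with THZ531, against 3.86% and 3.60% of all 9946 genes. With the combination 3 rose and 3 fell, against 4.61% and 3.51%. DDX47, an RNA helicase of the processome, had 2.24 (adjusted p = 0.00917) and TAF1D, a factor for RNA polymerase I, 1.07 (adjusted p = 0.0176) on the log2 scale with THZ531, and RIOK2, a kinase of 40S maturation, had -1.09 (adjusted p = 0.0144). DDX47 had 18.7 and 0.802 T>C CPM in the control libraries, which stand far apart, and 47.5 and 50.8 with THZ531. With the combination RSL24D1, a 60S assembly protein, had 1.23 (adjusted p = 0.00164) and EXOSC8, a subunit of the RNA exosome, 1.69 (0.0282), whereas IMP3, a U3 snoRNP protein, had -0.94 (0.000586) and TEX10 -2.16 (0.0105). The nascent medians of the wider list were -0.04 with SRPIN340, -0.18 with Endovion, 0.04 with THZ531, -0.02 with the combination and -0.11 for the combination against THZ531, beside -0.13, -0.25, 0.01, -0.24 and -0.22 over the 59 genes. In total RNA, of 103 genes of the wider list, 1 rose and 1 fell with SRPIN340 (1.82% and 0.143% of all genes), and 6 rose and 7 fell with Endovion (8.90% and 2.54%). With THZ531 27 rose and 8 fell (16.6% and 14.1% of all genes), and with the combination 18 rose and 11 fell (16.6% and 12.4%). For the combination against THZ531 none passed in edgeR. At an unadjusted p under 0.05, 2 were then up and 13 down, beside 945 up and 676 down of all 14689 genes.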

How the data were processed

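SLAM-seq libraries of 22RV1 cells (5 groups, 10 libraries) were analysed. The authors counted conversions with SLAM-DUNK and deposited, per 3′ interval, whole-number counts of reads and of T>C reads without normalization. The deposited conversion rate, a fraction of covered T positions, was not used in tests, and the deposited score of normalised reads served only to obtain the number of mapped reads. The submitters' processing notes name hg38, Bowtie2 2.3.4.1, SAMtools 1.6 and DESeq2 1.38.2. The libraries were built with a module for molecular identifiers, per the study's methods. SLAM-DUNK's version, variant masking and any collapsing of reads by these identifiers are not given in the sources used here, so that intervals cover counting error only.

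Of 104653 intervals, 92826 matched a GENCODE v44 transcript on a primary chromosome, and the 3.57% of T>C reads on other intervals were left out. Where intervals overlapped within a gene, the best covered was kept, and kept intervals were summed over 31015 genes. Libraries held 35517462 to 53592904 mapped reads. Counts were tested with edgeR 4.0.16 (R 4.3.3; TMM, filterByExpr, robust quasi-likelihood, 1 fit over 10 libraries, 5 residual degrees of freedom) at a Benjamini-Hochberg adjusted p under 0.05. For the labelled share, T>C and other reads were fitted together and their difference in response was tested. CPM values are TMM-scaled, and each SE is the fold change over the square root of its F statistic. Replicates differed by more than sampling noise (chi-square per degree of freedom 3.54 to 4.90). The procedure was tested on simulated data.

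Alternatives were DESeq2 1.42.0, a plain sum of intervals, no filter on low counts, a replicate block, a fit of 2 groups, another scaling and each library left out. Values are given for up to 5 called genes per direction in nascent RNA, up to 3 in total RNA and labelled share, and the gene with most control T>C reads in each role; other genes were named after their values had been seen. The genes and lists were chosen with earlier results of these data known. A marker gene of the list is not reported here.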

Additional observations from a re-analysis of the deposited data

How the results depend on the processing

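Of 300 counts and medians recomputed under alternatives, 232 were scored as unmoved, and 18 of 51 single-gene calls passed under every alternative. The score left room for movement. With the replicate block, the total RNA calls of the combination went from 16 to 14 and were scored as unmoved. So was the THZ531 nascent median, which went from 0.01 to -0.02 without control replicate 2. The 80 medians among the 300 were small themselves, so the score says little about them. The replicate numbers do not pair the samples, since deviations of same-numbered libraries correlated between -0.07 and 0.06; with the replicate block, 4 of the 51 calls were lost and the combination had 6 nascent calls in place of 5. The THZ531 nascent median of 0.01 was below 0 under 2 of 16 alternatives (-0.02 without control replicate 2, -0.03 without control replicate 1), and without control replicate 2 the 1 labelled share call of the combination was up, not down. In nascent RNA with SRPIN340 (1 call) the count was 0 in a plain sum of intervals, 2 without a low-count filter and 0 in a fit of 2 groups. With Endovion (1) DESeq2 gave 2. In the plain sum THZ531 (3) gave 1, the combination (5) gave 2 and the combination against THZ531 (2) gave 0, and the latter gave 1 in a fit of 2 groups. In total RNA, SRPIN340 (0) gave 3 in DESeq2 and 7 without a filter, and Endovion (8) gave 22 and 21. The combination against THZ531 (1) gave 3 in DESeq2, 4 without a filter, and 0 in the plain sum, in a fit of 2 groups and with plain library sizes. In labelled share, SRPIN340 (1) and the combination (1) gave 0 in the plain sum, and Endovion (0) gave 1 with plain library sizes.

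With each library left out, nascent calls ranged from 0 to 2 with SRPIN340, 1 to 2 with Endovion, 1 to 3 with THZ531, 2 to 6 with the combination and 0 to 2 for the combination against THZ531. Total RNA calls ranged from 0 to 6, 1 to 23, 8 to 16, 7 to 21 and 0 to 4, and labelled share calls from 0 to 1 in the first 4 comparisons and stayed at 0 in the fifth. A group left with 1 library was assumed to vary like the others. Genes with few T>C reads, such as PPAN and UTP4, were limited by depth. The causes of these differences were not tested.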
